A study of Caenorhabditis elegans with 12 samples.

Results

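The Hedgehog-related genes of Caenorhabditis elegans were taken as every gene whose symbol in the array's annotation begins with wrt- (warthog), grd- (groundhog) or grl- (ground-like). Each gene was read by a probe set assigned to it alone, and where there were several, by the one with the highest mean over the 12 arrays. This gave 52 genes of the 17118 measured, made up of 10 wrt, 12 grd and 30 grl genes. RefSeq (WBcel235) lists 59 genes with these prefixes. The other 7 (grd-4, grd-6, grd-13, grd-15, grd-17, grl-26 and grl-32) had no probe set of their own.

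The samples were embryonic cells of wild-type and mir-124 mutant worms, sorted by whether they expressed green fluorescent protein (GFP) from the mir-124 promoter. The reporter had been injected with a lin-15 rescue plasmid (pEM27) into lin-15 (n765) worms, integrated into the genome by X-rays and crossed into the N2 background. Dissociated embryonic cells were kept in culture for 24 hours before sorting, each sample held 500000 cells, and its RNA was amplified, per the labels' protocols. The 4 groups of 3 arrays were GFP+ and GFP- cells of wild-type worms and GFP+ and GFP- cells of mir-124 mutants. The labels do not name the mutant allele. By its label, a GFP+ sample was drawn from cells of any type in which the mir-124 promoter drove the reporter. A GFP- sample was drawn from the other cells that survived dissociation and culture. Whether the 3 samples of a group came from separate cultures is not stated per sample, so the p-values reflect only the spread among these samples, which may be technical.

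Hedgehog proteins are secreted signals that, in flies and vertebrates, release Smoothened from inhibition by the membrane protein Patched and so act on Gli transcription factors. C. elegans has no classical Hedgehog ligand and no Smoothened. It carries instead large families of secreted proteins with a Wart, Ground or ground-like domain, some of which end in the self-cleaving Hint domain that Hedgehog itself has, and an expanded set of Patched-related membrane proteins. Many genes of both kinds act in the epidermis and in other cells that face the outside, where they serve cuticle formation, moulting and vesicle traffic. The mir-124 microRNA of C. elegans is made mainly in ciliated sensory neurons.

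Marker lists showed which cells the fractions held. Over 22 genes of cilia and ciliated sensory neurons, the mean log2 signal lay between 7.77 and 8.36 in 5 GFP+ samples and between 4.83 and 5.04 in 5 GFP- samples. In wild-type replicate 3 the GFP+ sample was at 8.50, and the library labelled GFP- was at 8.51 and so went against its label. These 2 arrays correlated with each other at r = 0.977 across probe sets, while the one labelled GFP- correlated with GFP- replicates 1 and 2 of its strain at 0.893 to 0.903. The one labelled GFP+ correlated with GFP+ replicates 1 and 2 of its strain at 0.941 and 0.944. The comparisons below were therefore made with all 12 arrays and again with the 10 arrays that leave out the wild-type replicate 3 pair. Among epidermal and seam cell markers, 21 of 24 were measured. Their mean ran from 6.31 to 6.97 in the 5 GFP+ samples and from 7.44 to 8.71 in the 5 GFP- samples. In mutant GFP- replicates 1, 2 and 3 it was 8.28, 7.44 and 8.71. Glial markers (18 measured) had a mean of 6.68 to 6.96 in GFP+ and of 6.53 to 6.74 in GFP-, with 1 below the lower quartile of every array. Their median log2 difference, GFP+ minus GFP-, was -0.06 in the mutant and -0.02 in wild-type replicates 1 and 2. Markers of body wall muscle (14 genes) were at 8.14 to 8.69 in GFP+ and at 10.53 to 11.23 in GFP-. Those of the excretory duct, pore and canal (11 genes) were at 6.28 to 6.42 and 6.49 to 6.87, of the intestine (15 genes) at 5.36 to 5.51 and 6.23 to 6.71, and of the pharynx (9 genes) at 6.92 to 7.27 and 7.19 to 7.64.

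The Hedgehog-related genes lay on all chromosomes, with 27 on V, 10 on IV, 8 on X, 4 on III, 2 on II and 1 on I. In the RefSeq gene order 5 neighbouring pairs occurred, wrt-1 with wrt-10, grd-3 with grd-10, grl-29 with grl-30, grl-30 with grl-31, and grl-9 with grl-8. Probe sets that can bind transcripts of related genes (names ending in _s_at or _x_at) read 14 of the 52. These 14 were wrt-2, wrt-3, wrt-4, wrt-5, wrt-8, wrt-10, grl-4, grl-5, grl-7, grl-9, grl-16, grl-20, grl-29 and grd-16. Their signal may include related transcripts. Many of the 52 genes gave little signal in these cultured embryonic cells. The lower quartile of an array, the level under which 25% of its probe sets fell, was between 4.057 and 4.224. In all 12 arrays 6 genes were below it, namely grd-9, grd-10, grd-16, grl-24, grl-28 and grl-30. A further 18 were below it on some arrays, and 28 on none.

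**Figure D1:**
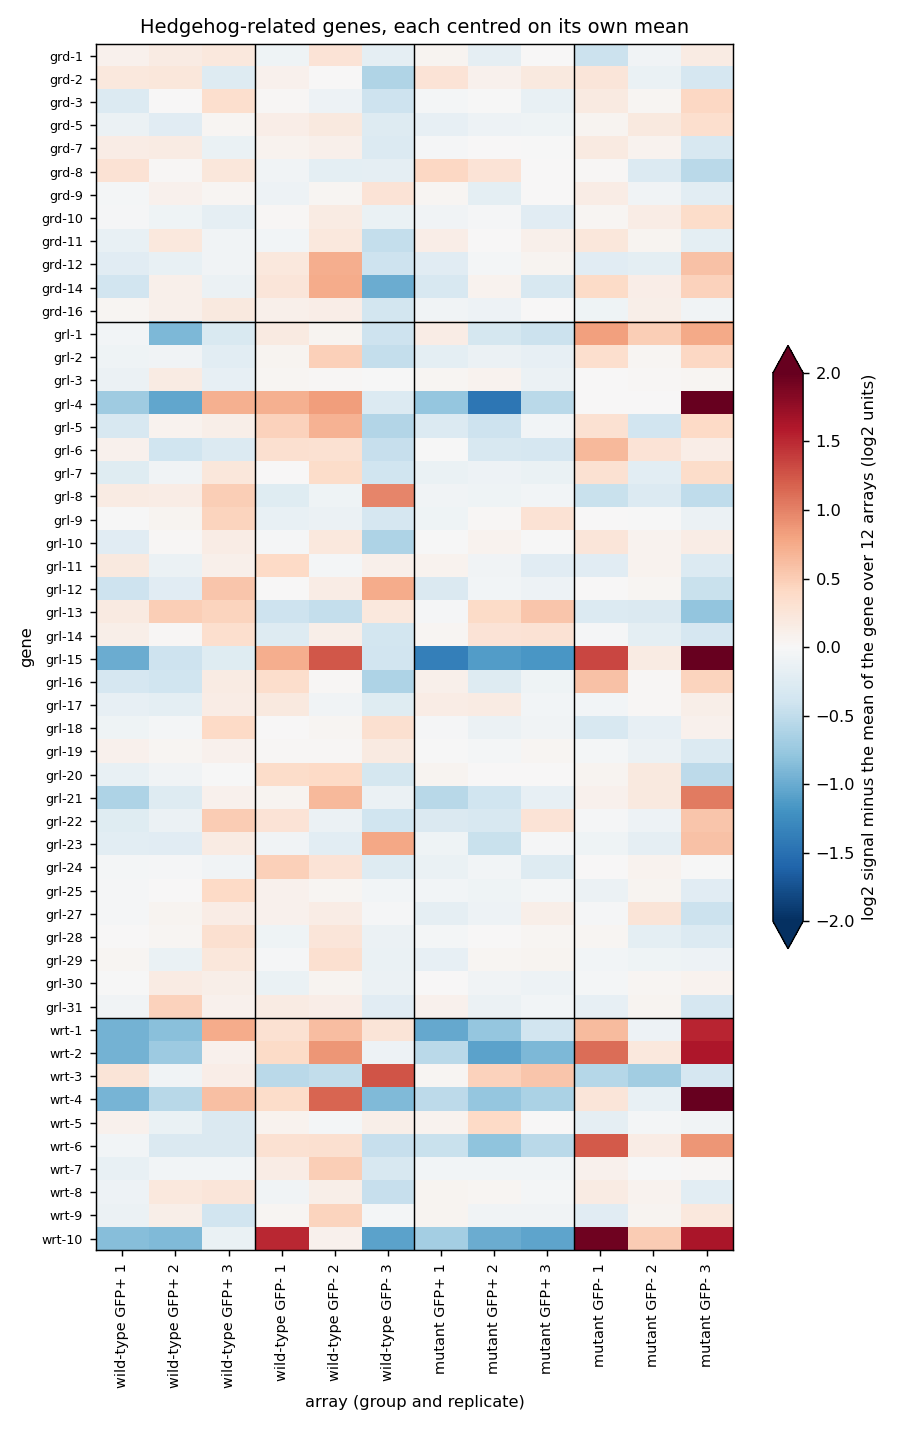
Log2 signal of each of the 52 Hedgehog-related genes (rows) on each of the 12 arrays (columns), each gene centred on its own mean over the arrays. The stretch of genes that were high in the mutant GFP- columns and in wild-type GFP- replicates 1 and 2, but not in the library labelled wild-type GFP- replicate 3, includes grl-15, wrt-10 and wrt-2.

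The first comparison asked which Hedgehog-related genes differed between GFP+ and GFP- cells of mir-124 mutants. In the fit to 12 arrays, 5 of the 52 genes (9.62%) fell in GFP+ and 0 rose. The 3 wrt genes wrt-2, wrt-6 and wrt-10 and the 2 grl genes grl-1 and grl-15 made up the 5. Of all probe sets, 12.1% passed the same test (limma, adjusted p under 0.05), 6.3% lower and 5.81% higher. The fit to 10 arrays called 11 genes (21.2%, against 27.5% of all probe sets). Of these, 8 were lower (15.4%, against 14%), the 5 above with wrt-1, grl-6 and grl-21. The other 3, wrt-3, grl-8 and grl-13, were higher (5.77%, against 13.5%). The share called in either direction was thus below that of all probe sets in both fits. The share that fell was near the background. By family, the fit to 10 arrays called 5 of 10 wrt, 6 of 30 grl and 0 of 12 grd genes. The difference between families was not tested.

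The wrt genes, whose products carry a Wart domain and only in some cases a Hint domain, held 6 of the 13 genes that differed by at least 0.5 on the log2 scale, with 6 in grl and 1 in grd. For wrt-10 on chromosome II, the log2 signal in mutant GFP+ replicates 1 to 3 was 5.05, 4.75 and 4.69, and in mutant GFP- replicates 1 to 3 it was 7.69, 6.24 and 7.37. In wild-type it was 4.88, 4.85 and 5.60 in GFP+ and 7.24, 5.83 and 4.66 in GFP-. The mutant groups did not overlap, and the last wild-type GFP- value, from the library that went against its label, was the lowest of all 12. wrt-10 was 4.82-fold lower in mutant GFP+ than in GFP- (log2 difference -2.27 ± 0.57 SE, limma adjusted p = 0.0316, 12 arrays). With 10 arrays the limma adjusted p was 0.00315.

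wrt-2, a gene whose promoter is used to mark seam cells, the lateral stem-like cells of the epidermis, lies on X. Its log2 signal was 6.60, 6.07 and 6.25 in mutant GFP+ and 8.27, 7.35 and 8.76 in mutant GFP-. In wild-type it was 6.20, 6.42 and 7.23 in GFP+ and 7.53, 8.03 and 7.04 in GFP-. Every mutant GFP- array was above every mutant GFP+ array, and in wild-type the groups overlapped only through replicate 3. The mutant difference was 3.53-fold (log2 -1.82 ± 0.39 SE, limma adjusted p = 0.0203 with 12 arrays and 0.00274 with 10).

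wrt-6 on X had 4.70, 4.34 and 4.60 in mutant GFP+ and 6.37, 5.30 and 6.02 in mutant GFP-. Its wild-type values were 5.09, 4.85 and 4.86 in GFP+ and 5.45, 5.46 and 4.69 in GFP-. The mutant groups did not overlap, while the wild-type GFP+ arrays sat closer to their GFP- counterparts. The mutant log2 difference of wrt-6 was -1.35 ± 0.28 SE (2.55-fold, limma adjusted p = 0.0187 with 12 arrays, 0.00298 with 10). The 12-array calls of wrt-2, wrt-6, wrt-10, grl-1 and grl-15 each depended on single arrays. Without any one of mutant GFP+ replicates 1, 2 or 3, or of mutant GFP- replicates 1 or 3, the number of genes called was 0. The share of all probe sets called fell in the same fits, from 12.1% to between 0.0% and 1.97%. Over all 12-array fits that left out 1 array, the log2 differences stayed at -1.97 to -3.0 for grl-15 and at -1.50 to -2.21 for wrt-2. Without the library labelled wild-type GFP- replicate 3 the number of genes called was 8. In the 10-array fit the number fell from 11 to 5 without mutant GFP+ replicate 2 and to 7 without mutant GFP+ replicate 3.

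wrt-1, the neighbour of wrt-10 on II, had 6.26, 6.50 and 6.90 in mutant GFP+ and 7.91, 7.18 and 8.81 in mutant GFP-. Its wild-type arrays had 6.33, 6.44 and 8.02 in GFP+ and 7.58, 7.89 and 7.53 in GFP-. The mutant groups were apart, and wild-type GFP+ replicate 3 was the highest wild-type value. The log2 difference in the mutant was -1.41 (SE 0.48, limma adjusted p = 0.0819 with 12 arrays, and SE 0.35, adjusted p = 0.0155 with 10). wrt-4, also on X, had 4.51, 4.27 and 4.41 in mutant GFP+ and 5.29, 4.90 and 7.10 in mutant GFP-. Its groups did not overlap, but mutant GFP- replicate 3 stood well above the others, and the gene missed the threshold (log2 -1.37 ± 0.64 SE, limma adjusted p = 0.199 with 12 arrays and 0.0676 with 10). It passed with 10 arrays and replicate number as a block within each strain (limma adjusted p = 0.0271).

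The remaining wrt genes differed less. wrt-3 went the other way, with 3.62, 4.04 and 4.14 in mutant GFP+ and 3.02, 2.89 and 3.25 in mutant GFP-. Its signal was below the lower quartile on 10 arrays, so the size of its difference (log2 0.88 ± 0.17 SE, limma adjusted p = 0.00405 with 10 arrays, 0.191 with 12) is that of a dim probe set. In wild-type its values were 3.85, 3.52 and 3.72 in GFP+ and 3.04, 3.09 and 4.85 in GFP-. wrt-5, which is required for embryonic development, had 6.70, 7.04 and 6.65 in mutant GFP+ and 6.45, 6.59 and 6.57 in mutant GFP-, a log2 difference of 0.26 ± 0.15 SE (limma adjusted p = 0.29 with 12 arrays, 0.192 with 10). For wrt-7, wrt-8 and wrt-9 the mutant log2 differences were -0.09, 0.01 and -0.05, each with an SE of 0.17 or 0.18.

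Among the grl genes, whose products have a ground-like domain and no Hint domain, grl-15 on III had the largest difference of all 52. Its mutant values were 5.25, 5.50 and 5.45 in GFP+ and 7.96, 6.78 and 8.84 in GFP-. In wild-type they were 5.63, 6.21 and 6.37 in GFP+ and 7.35, 7.86 and 6.23 in GFP-. Both wild-type replicate 3 arrays had about the same value, and apart from them every GFP- array was above every GFP+ array. grl-15 was 5.49-fold lower in mutant GFP+ (log2 -2.46 ± 0.51 SE, limma adjusted p = 0.0184 with 12 arrays, 0.00266 with 10).

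grl-1 on V showed a smaller difference. Its log2 signal was 6.46, 5.97 and 5.89 in mutant GFP+ and 7.13, 6.81 and 7.08 in mutant GFP-, with 6.27, 5.42 and 6.02 in wild-type GFP+ and 6.49, 6.37 and 5.90 in wild-type GFP-. The mutant groups did not overlap. The difference in the mutant was 1.87-fold (log2 -0.90 ± 0.25 SE, limma adjusted p = 0.043 with 12 arrays, 0.0176 with 10).

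Lower grl genes that passed with 10 arrays and not with 12 were grl-21 and grl-6. grl-21 on IV had 4.61, 4.78 and 5.00 in mutant GFP+ and 5.25, 5.37 and 6.21 in mutant GFP- (log2 -0.81 ± 0.27 SE, limma adjusted p = 0.0494). grl-6 on X had 6.46, 6.14 and 6.13 in mutant GFP+ and 7.11, 6.74 and 6.60 in mutant GFP- (log2 -0.57 ± 0.18 SE, limma adjusted p = 0.0393). In neither gene did the mutant groups overlap. Without mutant GFP- replicate 3 the grl-21 difference was -0.51, and 2 of the 10 fits that left out 1 more array kept its call. For grl-21 and grl-6 the limma adjusted p with 12 arrays was 0.1 and 0.144. In wild-type, grl-21 had 4.56, 4.92 and 5.26 in GFP+ and 5.23, 5.82 and 5.05 in GFP-. grl-6 had 6.55, 6.07 and 6.19 in wild-type GFP+ and 6.78, 6.77 and 6.0 in wild-type GFP-. For both genes the wild-type groups overlapped through replicate 3, whose GFP- library was below GFP+.

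grl-4 on IV, read by a probe set that can bind related transcripts, had a large mean difference without passing. Its values were 5.08, 4.40 and 5.31 in mutant GFP+ and 5.86, 5.86 and 8.36 in mutant GFP-. Mutant GFP- replicate 3 stood well above the rest of its group, which also lay above every mutant GFP+ array. The log2 difference was -1.76 ± 0.68 SE (limma adjusted p = 0.123 with 12 arrays and 0.0524 with 10). With 10 arrays and the block for replicate number it passed (limma adjusted p = 0.0104). grl-2, known from the excretory duct and pore cells, had a log2 difference of -0.43 ± 0.21 SE (limma adjusted p = 0.219 with 12 arrays, 0.0519 with 10, and 0.0456 with 10 and the block).

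Higher in mutant GFP+ was grl-13 on V, with 6.11, 6.51 and 6.68 in GFP+ and 5.86, 5.85 and 5.34 in GFP-. In wild-type it had 6.31, 6.62 and 6.58 in GFP+ and 5.72, 5.66 and 6.35 in GFP-. Leaving aside the library that went against its label, every GFP+ array was above every GFP- array in both strains. The mutant log2 difference was 0.75 ± 0.19 SE (1.68-fold, limma adjusted p = 0.018 with 10 arrays, 0.0614 with 12). grl-8 on V passed with 10 arrays at a small size, with 4.29, 4.27 and 4.31 in mutant GFP+ and 3.91, 4.08 and 3.85 in mutant GFP- (log2 0.34 ± 0.11 SE, limma adjusted p = 0.0395, 0.0501 with the block for replicate number, 0.481 with 12 arrays). Its signal was below the lower quartile on 3 arrays. In wild-type it had 4.53, 4.50 and 4.85 in GFP+ and 4.11, 4.27 and 5.34 in GFP-, the last value, of the library that went against its label, being the highest of the 12. The grl genes with the highest mean signal, grl-9 on V and grl-16 on I, had mutant log2 differences of 0.12 ± 0.15 SE and -0.43 ± 0.26 SE with 12 arrays. grl-9 had 7.14, 7.25 and 7.51 in mutant GFP+ and 7.23, 7.21 and 7.11 in mutant GFP-, and these groups overlapped. grl-16 had 7.27, 6.92 and 7.08 against 7.76, 7.20 and 7.61, also overlapping, and passed with 10 arrays and the block (limma adjusted p = 0.0232). In wild-type, grl-9 had 7.21, 7.28 and 7.67 in GFP+ and 7.07, 7.11 and 6.89 in GFP-, with no overlap. grl-16 had 6.84, 6.77 and 7.34 in wild-type GFP+ and 7.52, 7.20 and 6.55 in wild-type GFP-, which overlapped through replicate 3.

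Among the grd genes the mutant log2 differences ran from -0.52 to 0.49, and none passed in either fit. The raw limma p was under 0.05 in 1 of 12 genes with 12 arrays and 4 of 12 with 10. Of the 22548 probe sets, 6186 and 8470 had such a p. grd-8 on V had the highest difference of the grd genes, with 5.70, 5.55 and 5.29 in mutant GFP+ and 5.31, 5.01 and 4.74 in mutant GFP-. These groups overlapped by 1 array, although each replicate number was higher in GFP+ (log2 0.49 ± 0.17 SE, limma adjusted p = 0.0828 with 12 arrays, 0.0619 with 10). In wild-type it had 5.57, 5.30 and 5.51 in GFP+ and 5.21, 5.09 and 5.11 in GFP-, so that every GFP+ array was higher. A block for replicate number within each strain gave grd-8 a limma adjusted p of 0.0289 with 12 arrays and 0.0104 with 10. grd-14 on X was the lowest, with 6.23, 6.61 and 6.23 in mutant GFP+ and 6.93, 6.68 and 7.01 in mutant GFP- (log2 -0.52 ± 0.36 SE, limma adjusted p = 0.414 with 12 arrays, 0.0786 with 10, and 0.038 with 10 and the block). The groups did not overlap in the mutant. In wild-type it had 6.16, 6.64 and 6.42 in GFP+ and 6.78, 7.29 and 5.55 in GFP-, the last value being the lowest of all. grd-10, whose promoter is used as a seam cell marker, was below the lower quartile on all 12 arrays.

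**Figure D2:**
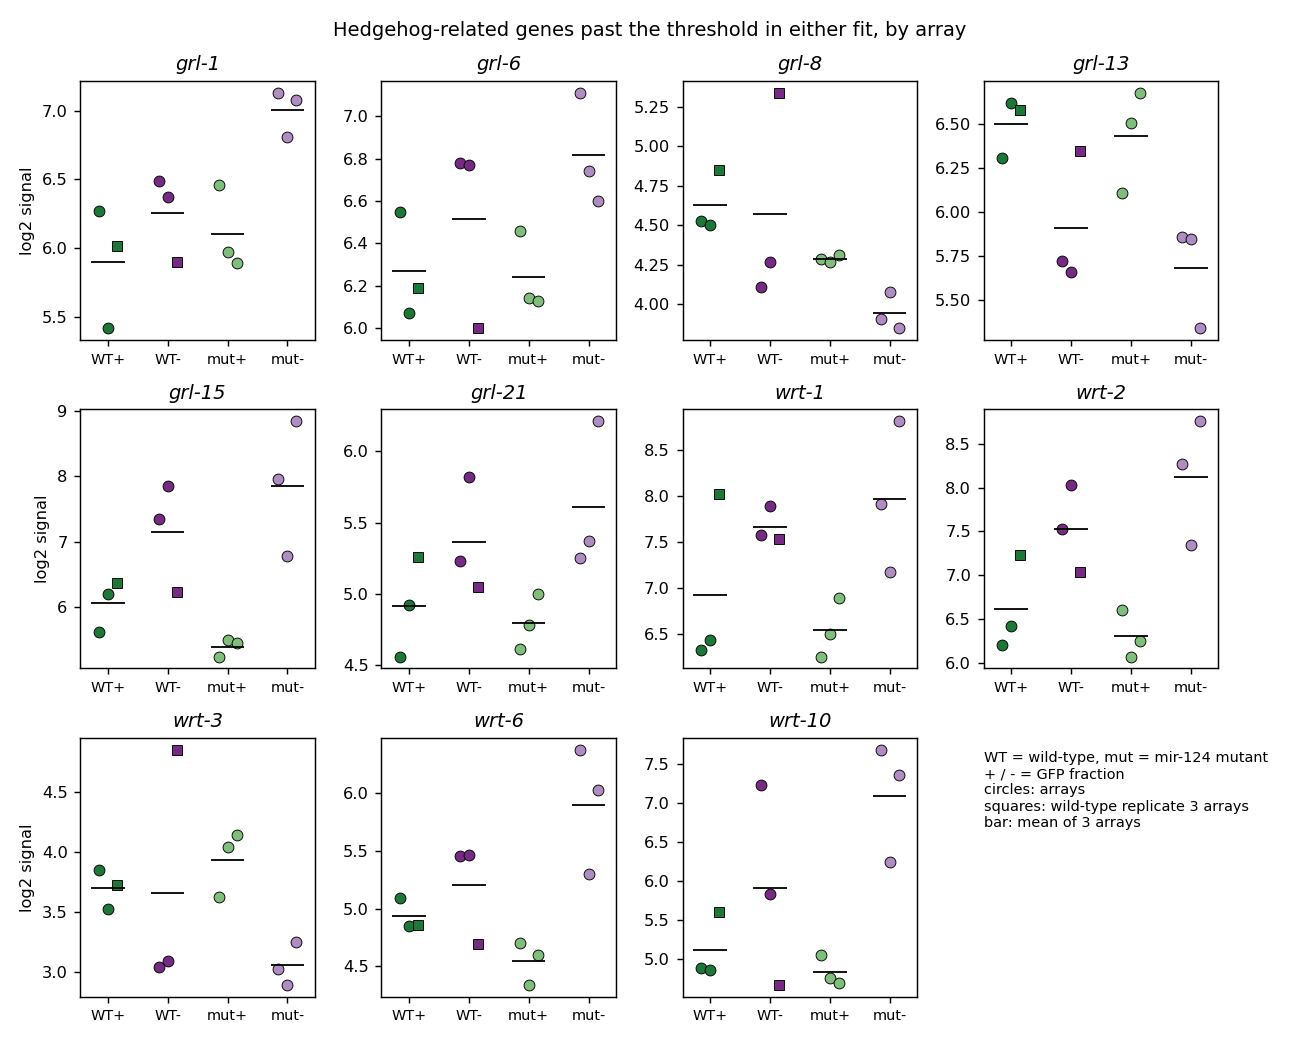
Log2 signal (vertical axis) of the 11 Hedgehog-related genes past the threshold in either fit, by group (WT wild-type, mut mir-124 mutant, + GFP+, - GFP-). Each point is 1 array, and wild-type replicate 3 is drawn as squares. In grl-15, wrt-10, wrt-2, wrt-6, grl-1, wrt-1, grl-21 and grl-6 the mutant GFP- arrays lay above the mutant GFP+ arrays, and in wrt-3, grl-13 and grl-8 below them.

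With 10 arrays and replicate number as a block within each strain, 16 of the 52 genes passed in the mutant (30.8%), against 35.7% of all probe sets. Over the 52 genes the median log2 difference in the mutant was -0.04, with 30 below 0 and a range of -2.46 to 0.88. Over all probe sets the median was 0.0. A difference of at least 0.5 in either direction was found in 13 of the 52 genes (25.0%) and in 32.2% of all probe sets. The family medians were -0.72 for wrt, -0.02 for grd and -0.02 for grl. In 18 of the 52 genes (34.6%) every mutant GFP+ array was below every mutant GFP- array, against 20.7% of all probe sets. The reverse held in 5 genes (9.62%), against 20.1%. The 18 include 6 wrt, 4 grd and 8 grl genes, which are wrt-1, wrt-2, wrt-4, wrt-6, wrt-7, wrt-10, grd-3, grd-5, grd-10, grd-14, grl-1, grl-2, grl-4, grl-6, grl-10, grl-15, grl-21 and grl-24. Of these, grd-10 and grl-24 were below the lower quartile on all 12 arrays and grd-3 and grd-5 on 11. For wrt-7 the log2 difference was only -0.09.

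Markers of several tissues moved with the same samples. Of the 21 epidermal markers, 7 were called lower in mutant GFP+ with 12 arrays (against 6.3% of all probe sets), and 14 lower and 1 higher with 10 arrays (against 14% lower). Body wall muscle markers were lower in 9 and 13 of 14 and intestinal markers in 5 and 8 of 15, with 12 and 10 arrays. Of the intestinal markers 1 was higher in each fit. Excretory duct, pore and canal markers were lower in 2 and 3 of 11. Pharyngeal markers were lower in 0 and 3 of 9 and higher in 0 and 1. Glial markers were lower in 1 and 2 of 18 and higher in 1 and 4. The lower ones were daf-6 with 12 arrays and daf-6 and ptr-10 with 10. Both genes return in the list of Hedgehog partners below. Mutant GFP- replicate 2 had the lowest value of its group in 6 of the 8 lower genes called in either fit. The highest mutant GFP- value was in replicate 3 for 4 of the 8 and in replicate 1 for the other 4. Among the higher genes, wrt-3 was lowest in replicate 2, and grl-8 and grl-13 were lowest in replicate 3. The share of all probe sets lowest in replicate 2 was not counted, so these counts have no background. In replicate 2 the epidermal (7.44), muscle, glial and excretory marker means were the lowest of the group, and the intestinal and pharyngeal means the highest. The part of tissue makeup in these differences was not tested, and in bulk samples fewer cells of a type and less RNA per cell cannot be told apart.

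The second comparison asked the same of wild-type cells. With 12 arrays 0 of the 52 genes passed, against 0.00443% of all probe sets. The raw limma p was under 0.05 in 2740 of the 22548 probe sets and in 3 of the 52 genes (grl-9, grl-13 and wrt-2). The smallest adjusted p was 0.353, for grl-13 (log2 0.59 ± 0.23 SE, limma), the 1 gene that passed without the library labelled wild-type GFP- replicate 3. With 10 arrays, and so 2 per wild-type group, 1 gene passed, wrt-2, which was 2.77-fold lower in GFP+ (log2 -1.47 ± 0.39 SE, limma adjusted p = 0.0333). Of all probe sets 16% passed, with 7.56% lower and 8.45% higher. This count rested on few arrays. It was 0 without wild-type GFP+ replicate 1 or 2, and without wild-type GFP- replicate 1 or 2 the 1 gene that passed was wrt-7 or wrt-10 in place of wrt-2. It was 2 without replicate 1 of either mutant group, 5 without mutant GFP- replicate 2 and 9 without mutant GFP- replicate 3. All 11 genes called in the mutant had the same sign in wild-type replicates 1 and 2, as did 99.6% of the probe sets called in the mutant.

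Several wild-type differences missed the threshold with 10 arrays. grl-15 had a log2 difference of -1.69 ± 0.53 SE (limma adjusted p = 0.0614, 10 arrays), wrt-10 of -1.67 ± 0.50 SE (adjusted p = 0.0538), and wrt-1 of -1.35 ± 0.43 SE (adjusted p = 0.0661). The wrt-10 value moved with single arrays, to -0.96 without wild-type GFP- replicate 1 and to -2.37 without wild-type GFP- replicate 2. grl-13 was higher in GFP+ by 0.78 ± 0.24 SE (limma adjusted p = 0.0551). When replicate number was a block within each strain, the 10-array fit called 9 genes (17.3%, against 23.6% of all probe sets), namely grl-4, grl-5, grl-15, grl-16, grl-21, wrt-1, wrt-2, wrt-3 and wrt-10, with 8 lower and 1 higher. In 12-array fits that left out 1 array the wild-type differences of wrt-3, grl-16, grd-14 and grl-8 changed sign. They ran from -0.27 to 0.63 for wrt-3 and from -0.37 to 0.11 for grl-16. For grd-14 the range was -0.63 to 0.24, and for grl-8 it was -0.18 to 0.44. In wild-type replicates 1 and 2, GFP+ was below GFP- without overlap in 28 of the 52 genes (53.8%), against 30.2% of all probe sets, and above it in 8 (15.4%), against 27%. With all 3 wild-type replicates these counts fell to 0 lower, against 5.23%, and 2 higher (grd-8 and grl-9), against 5.49%. The 28 lower genes include grd-10, grd-16 and grl-24, which were below the lower quartile on all 12 arrays. Of the 11 genes called in the mutant, the library labelled wild-type GFP- replicate 3 lay nearer to the GFP+ mean of replicates 1 and 2 in 10, with wrt-1 the exception. For wrt-2 its value of 7.04 was about midway between the means of 6.31 and 7.78. The wild-type GFP+ replicate 3 array lay nearer to the GFP+ mean in 8 and to the GFP- mean in 3 (grl-21, wrt-1 and wrt-2). The share over all probe sets was not counted.

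**Figure D3:**
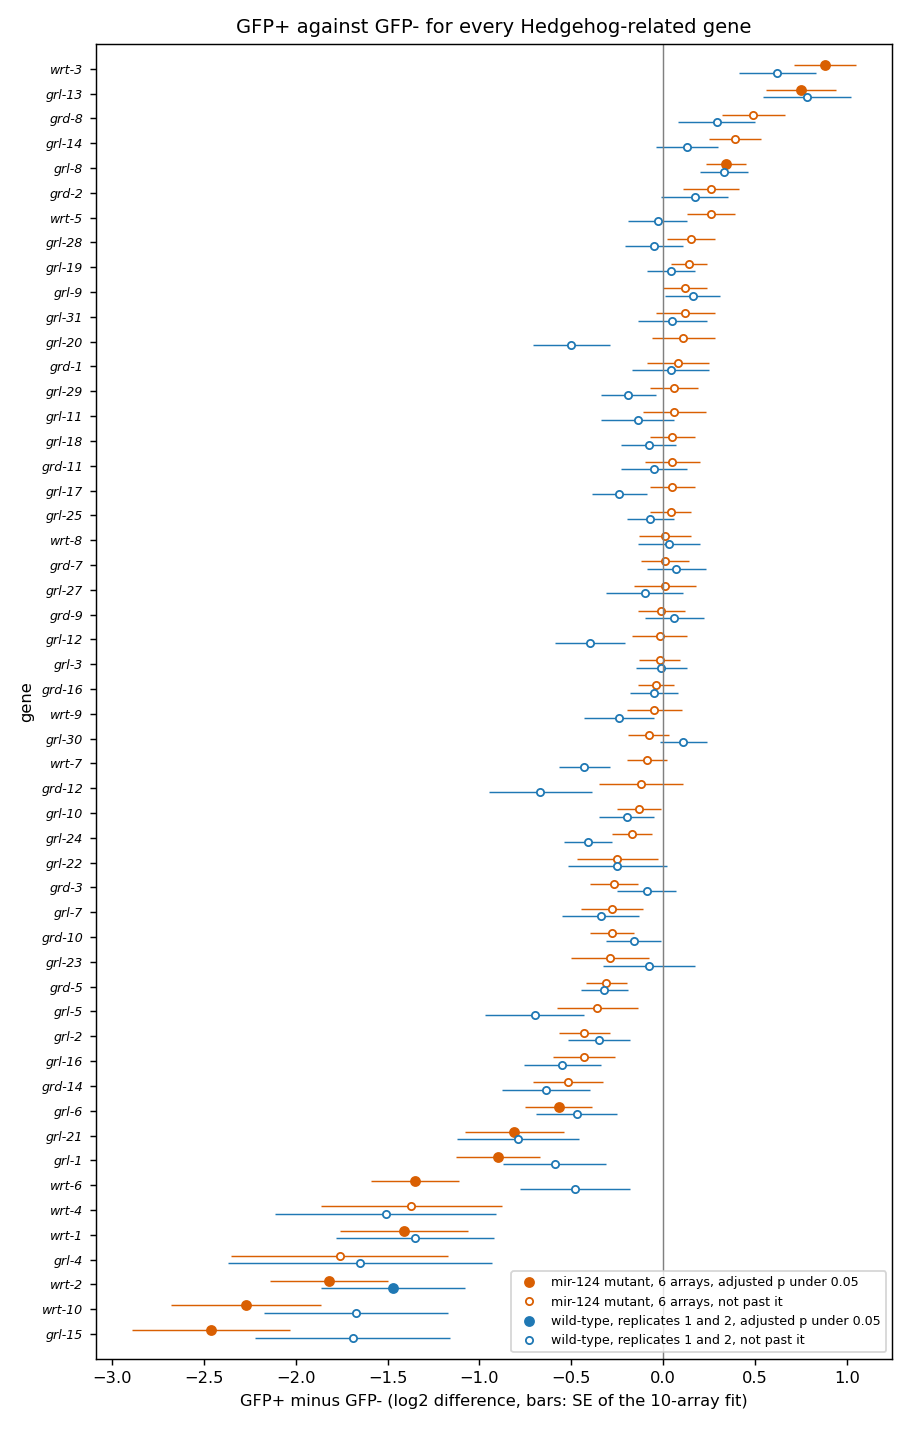
Log2 difference of GFP+ minus GFP- (horizontal axis, 10-array fit) for every Hedgehog-related gene (vertical axis) in the mutant and in wild-type, with bars for the SE. The genes with the lowest values in the mutant (grl-15 at -2.46, wrt-10 at -2.27) were also low in wild-type (-1.69 and -1.67).

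The third comparison asked whether loss of mir-124 changed these genes. Between mutant and wild-type GFP+ cells 0 of the 52 passed with 12 arrays, against 0.0133% of all probe sets, and 0 with 10 arrays, against 0.0222%. None had a raw limma p under 0.05 in either fit, against 233 of the 22548 probe sets with 12 arrays and 687 with 10. The log2 differences of mutant minus wild-type in GFP+ ran from -0.67 (grl-15, SE 0.51) to 0.27 (wrt-5, SE 0.15), with a median of -0.09. With 10 arrays they ran from -0.52 (grl-15) to 0.28 (grl-16). In GFP- cells 0 passed with either set, against 0.0222% with 12 arrays and 0.0177% with 10. The genes with a raw limma p under 0.05 were grl-1, grl-8 and wrt-6 with 12 arrays and grl-20 and grl-24 with 10. Of the 22548 probe sets, 1130 and 1201 had such a p. The differences in GFP- ran from -0.63 (grl-8) to 1.19 (wrt-10, SE 0.57) with 12 arrays and from -0.48 (grl-20) to 0.58 (grl-1) with 10. With 10 arrays the SEs ran from 0.12 to 0.66, with a median SE of 0.17. These SEs bound what could be seen, and a p above the threshold does not show that the strains were alike.

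Some genes had strain groups that did not overlap. In GFP+ cells with 12 arrays, 7 genes (grd-1, grd-16, grl-8, grl-15, grl-19, grl-25 and wrt-6) were lower in the mutant in every array, which is 13.5% of the 52 against 3.69%, and 2 were higher (grl-20 and wrt-7), against 2.79%. The log2 differences of the lower genes ran from -0.67 (grl-15) to only -0.07 (grl-19). Those of the higher genes were 0.1 (grl-20) and 0.04 (wrt-7). Of the lower genes, grd-16 was below the lower quartile on all 12 arrays. With 10 arrays the counts were 10 lower, against 8.33%, and 4 higher, against 10.8%. In GFP- cells 3 genes were lower (grl-8, grl-19 and wrt-5), against 3.81%, and 2 were higher (grd-3 and grl-1), against 4.24%. Without the wild-type replicate 3 pair these were 9 lower, against 8.36%, and 2 higher, against 9.23%. None of these counts was tested.

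Whether the fraction difference depended on the strain was asked by the interaction. With both sets of arrays 0 of the 52 genes passed, against 0.0% of all probe sets. wrt-6 was the 1 gene of the 52 with a raw limma p under 0.05 with 12 arrays, and grl-20 joined it with 10. Of the 22548 probe sets, 329 and 266 had such a p. For wrt-6 the interaction was -0.87 ± 0.38 SE with 10 arrays (limma adjusted p = 1.0).

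The partners of Hedgehog signalling were followed through a list of 35 other genes, made up of 24 ptr genes, ptc-1, ptc-3, ptd-2, che-14, daf-6, ncr-1, ncr-2, scp-1, tra-1, hog-1 and qua-1. ptc-2 was read only by a probe set it shares with ptc-1. Each gene of the list was read by its own probe set with the highest mean. Among the genes named below, che-14, ptc-1, ptr-2, ptr-4 and tra-1 had further probe sets, which were not read separately. Among the genes named below, che-14, ncr-1, ptc-3, ptr-2, ptr-4, ptr-5 and qua-1 were read by probe sets that can bind related transcripts. Of the list, che-14 is also an epidermal marker, and daf-6 and ptr-10 are glial markers, in the lists above. The fit to 12 arrays called 8 of the 35 in the mutant (22.9%, against 12.1% of all probe sets), 5 lower and 3 higher in GFP+, and 0 in wild-type. With the replicate number as a block within each strain it called 13 in the mutant (37.1%, against 20.4%), 10 lower and 3 higher. The fit to 10 arrays called 18 in the mutant (51.4%, against 27.5%), with 15 lower and 3 higher. In wild-type it called 9 (25.7%, against 16%), with 7 lower and 2 higher. Single arrays moved the 12-array count too, to 0 without mutant GFP+ replicate 1 or 2 or mutant GFP- replicate 3, to 1 without mutant GFP- replicate 1, to 2 without mutant GFP+ replicate 3, and to 17 without the library labelled wild-type GFP- replicate 3. The 10-array mutant count fell to 11 without mutant GFP+ replicate 2. In wild-type the 12-array count was 8 without the library labelled wild-type GFP- replicate 3 and 1 without wild-type GFP+ replicate 3. The 10-array wild-type count ran from 2 without wild-type GFP+ replicate 1 or 2 through 4 without wild-type GFP- replicate 1 or 2 to 16 without mutant GFP- replicate 2 or 3.

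The Patched-related genes fell on both sides. ptr-4, which is needed for moulting, had 5.90, 5.42 and 6.54 in mutant GFP+ and 8.59, 7.34 and 9.85 in mutant GFP-, and was 6.24-fold lower in GFP+ (log2 -2.64 ± 0.72 SE, limma adjusted p = 0.0402, 12 arrays). In wild-type replicates 1 and 2 it had 5.59 and 5.69 in GFP+ and 8.21 and 8.40 in GFP-. No GFP+ array reached a GFP- array in either strain once the wild-type replicate 3 pair was left aside. ptr-5 was the opposite, with 7.70, 7.58 and 7.90 in mutant GFP+ and 5.84, 5.65 and 5.68 in mutant GFP- (4.02-fold higher, log2 2.01 ± 0.49 SE, limma adjusted p = 0.0285, 12 arrays). In wild-type replicates 1 and 2 it was 7.80 and 7.65 against 6.05 and 5.09, and 2.16 ± 0.27 SE higher (limma adjusted p = 0.000659, 10 arrays).

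Other members of the list that fell in mutant GFP+ with 12 arrays were ptr-1 (4.67-fold, log2 -2.22 ± 0.58 SE, limma adjusted p = 0.0346), ptr-22 (log2 -1.85 ± 0.40 SE, adjusted p = 0.0204) and ptr-2 (log2 -1.59 ± 0.29 SE, adjusted p = 0.0151). daf-6, a Patched-related protein that shapes the glial channel around sensory cilia, fell as well, with 6.68, 6.48 and 7.05 in GFP+ and 8.0, 7.98 and 8.50 in GFP- (log2 -1.42 ± 0.25 SE, limma adjusted p = 0.0142). The arrays of the 2 mutant groups did not overlap for daf-6. The genes that rose beside ptr-5 were ptr-9 (log2 1.47 ± 0.36 SE, limma adjusted p = 0.0277) and ncr-1, a homologue of the sterol transporter NPC1 (2.44-fold, log2 1.29 ± 0.36 SE, adjusted p = 0.0431). These 8 also passed with 10 arrays. che-14, a relative of Dispatched, passed with 10 arrays (log2 -1.05 ± 0.35 SE, limma adjusted p = 0.0494) and not with 12 (adjusted p = 0.115), where the block within strain gave 0.0483.

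The Patched genes and the Gli-family gene did not pass with 12 or 10 arrays. ptc-1 had a mutant log2 difference of 0.49 ± 0.29 SE (limma adjusted p = 0.33 with 12 arrays, 0.0841 with 10) and ptc-3 of -0.53 ± 0.28 SE (adjusted p = 0.263 and 0.0645). With 10 arrays and the block, ptc-1 passed in the mutant (limma adjusted p = 0.0335) and in wild-type (0.0294). tra-1, the Gli-family transcription factor of sex determination, had 0.08 ± 0.49 SE (adjusted p = 0.95). The Hint-domain genes hog-1 and qua-1 had -0.06 ± 0.25 SE and -0.35 ± 0.23 SE. Between the strains, and in the interaction, 0 of the 35 passed in either fit.

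**Figure D4:**
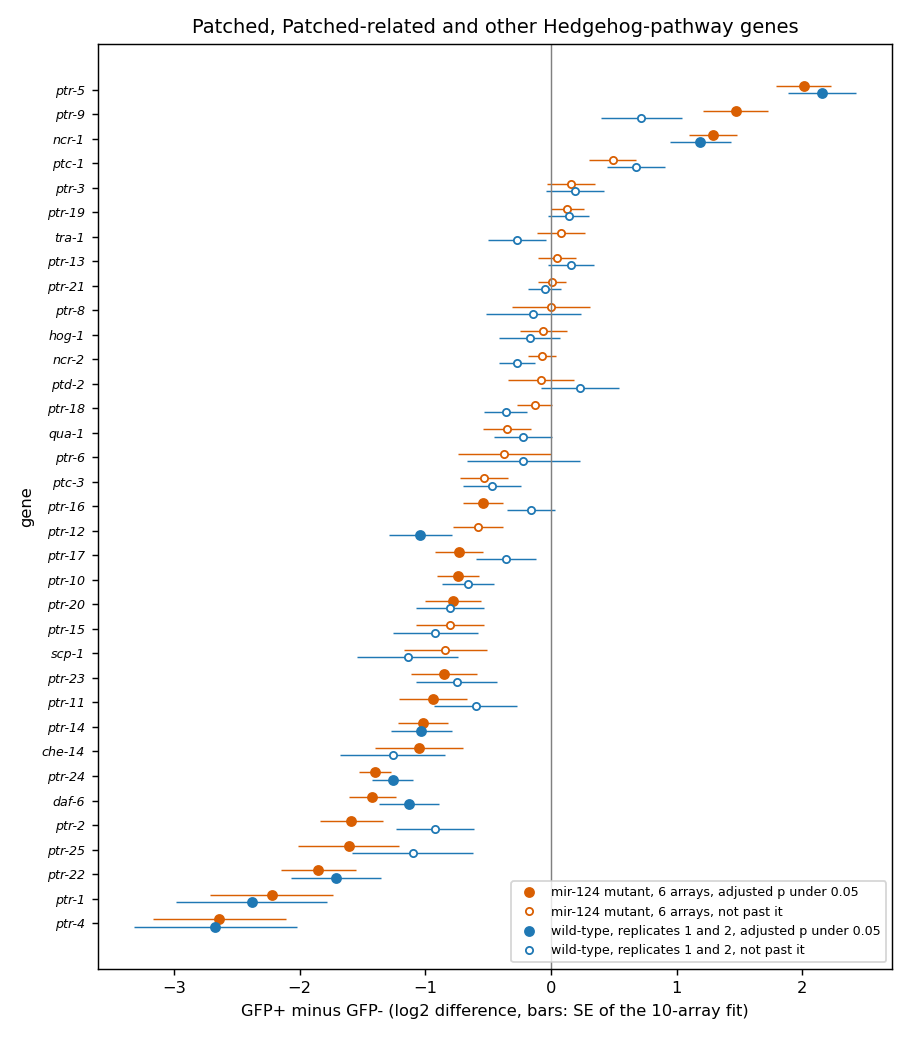
Log2 difference of GFP+ minus GFP- (horizontal axis, 10-array fit) for the 35 Patched, Patched-related and other pathway genes (vertical axis), in the mutant and in wild-type, with SE bars. ptr-5 (2.01 in the mutant, 2.16 in wild-type) lay at the high end, and ptr-4 (-2.64 and -2.67) at the low end.

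Where a Hedgehog-related gene had 2 probe sets, they were read separately. For grl-7 the second one, which can bind related transcripts, had 3.76, 3.85 and 3.89 in mutant GFP+ and 5.78, 4.32 and 6.73 in mutant GFP- (log2 -1.78 ± 0.49 SE, limma adjusted p = 0.0248 with 10 arrays, 0.058 with 12). The probe set that represents grl-7 can bind related transcripts as well. It had 4.59, 4.63 and 4.60 against 5.03, 4.51 and 5.10, a log2 difference of -0.28 ± 0.17 SE, so the 2 disagreed about the size. The probe set that grl-32 shares with T24A6.1 and T07F10.5 was lower in GFP+ with 10 arrays (log2 -0.85 ± 0.17 SE in the mutant, limma adjusted p = 0.00538, and -1.11 ± 0.21 SE in wild-type, adjusted p = 0.00658) and did not pass with 12 (limma adjusted p = 0.121 and 0.48). Which of the 3 genes gave the signal cannot be told apart.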

How the data were processed

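The deposited table held a log2 value for each probe set on each of 12 arrays, in 4 groups of 3. RMA, MAS5, affy and limma appear in the submitters' processing notes without roles or versions, and which of them made the authors' values is not settled here. Array medians were 5.391 to 5.509, and no scaling was added. Of 22625 probe sets, 77 controls were left out and 22548 tested. limma 3.58.1 in R 4.3.3 fitted 4 group means over all arrays (lmFit, eBayes, 2-sided, Benjamini-Hochberg over the 22548, threshold 0.05), after being tested on simulated data. The number of arrays limits precision. All Hedgehog-related genes could be named, with values per array for those past the threshold in either fit and the 2 with the highest mean of each family; other genes came from a pathway list. Members, lists and rules were chosen with earlier results of these data known. Same-numbered samples deviated together within a strain (correlations 0.359 to 0.485), as the data show and no label states, so blocked fits were run. Alternatives were other normalizations, a dim-probe filter, moderation settings, array weights, the replicate block and leaving out arrays. RefSeq WBcel235 gave symbols, chromosomes and gene order. Figures used matplotlib 3.10.9.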

Additional observations from a re-analysis of the deposited data

How the results depend on the processing

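With 12 arrays 5 Hedgehog-related genes passed in the mutant and 0 in wild-type. In the mutant the count was 11 without both wild-type replicate 3 arrays, 8 with only the arrays of the groups compared and 13 (25.0%) with array weights, when 27.5%, 22.9% and 31.6% of all probe sets passed. In wild-type it was 1 without that pair and 13 (25.0%) with array weights, when 16% and 22.8% of all probe sets passed. With the replicate number as a block within each strain and without the pair, it was 16 in the mutant and 9 in wild-type, when 35.7% and 23.6% of all probe sets passed. The block over all 12 arrays gave 7 in the mutant and the block within strain 6, with 0 in wild-type under both. Further quantile normalization, the filter on dim probe sets and the mean of a gene's probe sets each called the same 5 genes, and a shift to one median and trended, robust moderation each called 4 of them, without grl-1. Leaving out 1 array at a time gave 0 to 8 in the mutant and 0 to 1 in wild-type with 12 arrays, and 5 to 16 and 0 to 9 with 10. For the pathway list the mutant count of 8 became 18 without the pair, 14 with only the groups compared, 13 with the block within strain, 21 with that block and without the pair, and 21 with array weights. Its wild-type count of 0 became 9, 18 and 17 without the pair, with block and without the pair, and with array weights. Leaving out 1 array at a time gave 0 to 17 and 0 to 8 with 12 arrays, and 11 to 20 and 2 to 16 with 10. The leave-one-out fits of the 10 arrays and those of the pathway list were chosen after seeing the data. An arm left with 1 array was assumed to vary like the other groups. The block changed no call between strains or in the interaction, where all counts were 0. The causes were not tested. The differences of the 5 genes called in the mutant with 12 arrays kept their sign under every alternative run.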
